A study of Mus musculus with 12 samples.

Results

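The 7 genes described here encode the CD200 receptors (Cd200r1, Cd200r2, Cd200r3 and Cd200r4), their ligand CD200, the inhibitory receptor SIRP-alpha (Sirpa) and its ligand CD47. They were found by gene symbol among the 55291 genes of the deposited table, and all 7 had a row. The set was selected on measured values, since it was proposed with the ozone minus filtered-air differences of these same mice known. Their ozone differences are therefore given as a description, with a standard error (SE) and without a p-value.

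RNA was measured in alveolar macrophages, the phagocytes that reside in the airspaces, flow-sorted from the lungs of female C57BL6/NJ mice aged 8 to 11 weeks. The 6 mice of the ozone group were exposed on 4 days in a row, each time to 0.8 ppm ozone over 4 h, and their lungs were removed 3 days later. The 6 control mice were given filtered air in place of ozone. Cells were sorted in 2 batches with 3 mice of each group in each, and the labels name no genetic alteration. Each value is a variance-stabilized expression level (VST) on the log2 scale from which the control mean has been subtracted, so that filtered air averages 0 in every gene. The abundance of a gene and the number of reads per library were not kept in these values, so levels cannot be compared between genes.

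Macrophages carry receptors that hold their activation in check. CD200R1 binds CD200 on neighbouring cells, in the lung among others on epithelium and endothelium, and recruits the adaptors Dok2 and Dok1 through its cytoplasmic tail. SIRP-alpha binds CD47, the "do not eat me" signal of most cells, and recruits the phosphatases SHP-1 and SHP-2 to its cytoplasmic immunoreceptor tyrosine-based inhibitory motifs (ITIMs), which restrains engulfment. The mouse family also has receptors with short tails. Of these, Cd200r3 and Cd200r4 encode partners of the activating adaptor DAP12.

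The 4 receptor genes lie side by side on the plus strand of chromosome 16, in the order Cd200r1, Cd200r4, Cd200r2 and Cd200r3 (GENCODE M21, GRCm38, the build that the submitters' processing notes name as mm10). Cd200r1 spans chr16:44765736-44794978, Cd200r4 spans chr16:44811733-44839150, Cd200r2 spans chr16:44867097-44915840 and Cd200r3 spans chr16:44943678-44981380. The cluster covers 215645 bases and holds 0 other protein-coding genes. The ligand gene Cd200 (chr16:45382135-45409053, minus strand) begins 400754 bases beyond Cd200r3, and Cd47 (chr16:49800533-49915010, plus strand) lies further along the same chromosome. Sirpa is on chromosome 2 (chr2:129592835-129632228, plus strand).

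Because the receptor genes are close relatives, the sequence upstream of each is shown to let their starts be compared. RefSeq's promoter table (GRCm38) held 5 of the 7 genes, and Cd200r1 and Sirpa had no entry. Printed are the 250 bases before the annotated start of the 3 remaining receptor genes, at chr16:44866847-44867096 for Cd200r2, chr16:44943428-44943677 for Cd200r3 and chr16:44820478-44820727 for Cd200r4, all on the plus strand. The RefSeq start of Cd200r4 lies inside the longer span that GENCODE gives. Capitals mark the PU.1 core motif in Cd200r2 and the longest run shared with the other gene in Cd200r3 and Cd200r4.
Cd200r2: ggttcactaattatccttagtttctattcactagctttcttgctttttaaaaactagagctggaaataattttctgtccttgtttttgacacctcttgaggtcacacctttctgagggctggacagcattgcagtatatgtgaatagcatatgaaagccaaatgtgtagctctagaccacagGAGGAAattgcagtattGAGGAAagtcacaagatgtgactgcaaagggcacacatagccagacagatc
Cd200r3: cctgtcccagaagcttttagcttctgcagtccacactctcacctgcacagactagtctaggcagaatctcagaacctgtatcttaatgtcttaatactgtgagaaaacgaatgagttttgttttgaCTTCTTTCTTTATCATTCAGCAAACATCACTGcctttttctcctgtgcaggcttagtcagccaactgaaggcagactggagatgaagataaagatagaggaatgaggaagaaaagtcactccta
Cd200r4: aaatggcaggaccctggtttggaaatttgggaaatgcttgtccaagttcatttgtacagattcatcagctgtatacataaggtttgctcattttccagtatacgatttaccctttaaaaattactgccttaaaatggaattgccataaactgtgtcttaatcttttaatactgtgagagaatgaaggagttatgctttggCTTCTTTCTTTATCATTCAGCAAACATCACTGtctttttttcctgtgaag

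Cd200r3 and Cd200r4 shared a run of 32 bases within an aligned stretch of 107 bases at 86.9% identity. The upstream sequence of Cd200r2 shared no run over 8 bases with either. Both strands were searched for 4 motifs: the PU.1 core GAGGAA, AP-1 TGANTCA, STAT TTCNNNGAA and the NRF2 core TGACNNNGC. PU.1 is a transcription factor that macrophages require. Cd200r2 held 2 matches to its core, Cd200r3 held 2 and Cd200r4 held 0, while 23.1% of 27025 promoters of the same length held at least 1 match. Of the other motifs, the NRF2 core had 1 match in Cd200r3, and 10.1% of all promoters had one. AP-1 and STAT had 0 matches in the 3 sequences, and were held by 6.87% and 7.18% of all promoters. A match is a description of the letters and not a bound site.

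How far sequencing reads could be confused between the genes was read from the annotated transcripts, since libraries were read in 50-base ends. Of 1701 distinct 50-base words in the Cd200r2 transcript, 4.35% also occurred in another gene, with Cd200r4 as the main partner at 3.59%. The shared part was 4.94% for Cd200r4, 1.16% for Cd200r1 and 2.69% for Cd200r3, whose main partner was Tyms and not a receptor of the family. Cd200 and Sirpa shared 0 words with other genes and Cd47 shared 0.615%. Over the longest coding sequences, Cd200r2 was 91.3% identical to Cd200r4, 85.2% to Cd200r1 and 76.2% to Cd200r3. The coding sequence of Cd200r1 was the longest of the receptors at 978 bases, followed by Cd200r3 at 888, Cd200r4 at 810 and Cd200r2 at 747 bases.

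Among the 7 genes, Cd200r2 stood apart after ozone. It was higher by 0.47 and its groups did not overlap, whereas the groups of the other 6 genes did. In the fit across 19633 genes with limma, 1 of the 7 had an adjusted p under 0.05 (Benjamini-Hochberg), beside 4.25% of all genes tested. In that direction 1 of the 7 was called higher, beside 2.41% of all genes, and 0 were called lower, beside 1.84%. The groups were separate in 1 of the 7, beside 3.53% of all genes, with the ozone mice on the higher side, beside 1.96%. Nothing is read from these counts, since the genes were chosen with this comparison known. After ozone 5 members had a higher and 2 a lower mean, with a median difference of 0.026, against -0.0033 over all genes kept. All 7 passed the filter on low values, with no mouse at a minimum shared by several mice of its batch. This does not measure abundance.

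**Figure D1:**
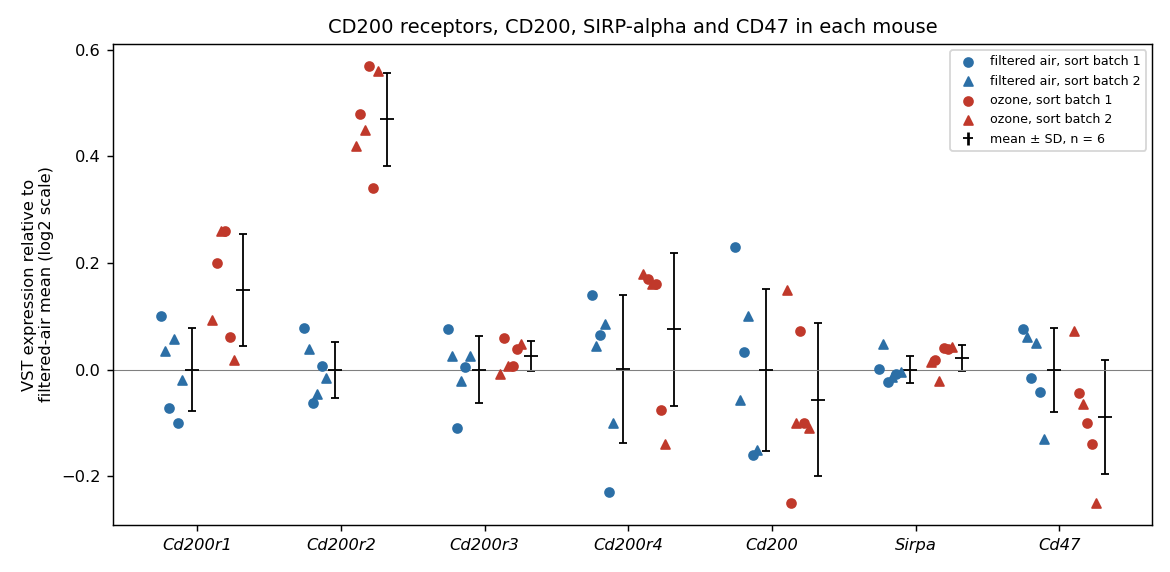
VST expression of each gene relative to its filtered-air mean (y axis, log2 scale) in every mouse (points, filtered air blue, ozone red, shape by sort batch), with the mean ± SD of 6 mice in black. The ozone mice lie between 0.34 and 0.57 in Cd200r2, above every filtered-air mouse, and the groups overlap in the other genes.

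Cd200r2, which encodes a short-tailed receptor of the family, had values of 0.42, 0.48, 0.45, 0.57, 0.34 and 0.56 in ozone mice 1 to 6. In filtered-air mice 1 to 6 the values were 0.078, 0.039, -0.063, -0.045, 0.0063 and -0.015. The lowest ozone mouse lay 0.27 above the highest filtered-air mouse. The difference was 0.47 (SE 0.0449), from 0.47 ± 0.0869 (SD, n = 6) against 0 ± 0.0527 (SD, n = 6). A difference of this size is 1.39-fold where the VST scale is fully logarithmic, and a larger fold where reads are few, because the scale is compressed there. Of all genes kept, 0.433% had a larger absolute difference.

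Cd200r1, the inhibitory receptor with the long tail, had values of 0.093, 0.20, 0.26, 0.26, 0.062 and 0.018 in ozone mice 1 to 6. The filtered-air mice had values of 0.10, 0.035, -0.071, 0.057, -0.10 and -0.019. All 6 ozone mice lay above the filtered-air mean and 3 of them, mice 2, 3 and 4, lay above every filtered-air mouse. The difference was 0.15 (SE 0.0533), with an SD of 0.106 in the ozone mice and 0.0789 in the controls (n = 6 each).

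Cd200r4, the DAP12-coupled receptor whose coding sequence is closest to that of Cd200r2, had values of 0.18, 0.17, 0.16, 0.16, -0.076 and -0.14 in ozone mice 1 to 6. Filtered-air mice 1 to 6 had values of 0.14, 0.044, 0.066, 0.085, -0.23 and -0.10. In each group the mice numbered 5 and 6 were low, and the other 4 ozone mice lay above every filtered-air mouse. The difference was 0.076 (SE 0.0749), with SDs of 0.146 and 0.140 (n = 6 each).

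Cd200r3, which encodes the other DAP12 partner and is best known from basophils and mast cells, had values of -0.0082, 0.060, 0.0077, 0.0068, 0.039 and 0.049 after ozone. Filtered-air mice had values of 0.077, 0.025, -0.11, -0.022, 0.0054 and 0.025. All ozone mice lay inside the filtered-air range, and the difference was 0.026 (SE 0.0369; SDs 0.0273 and 0.0631, n = 6 each). Of the 8 markers listed for basophils and mast cells, Gata2 and Kit were above the shared minimum in all 12 mice, like Cd200r3, Cyp11a1 in 10, Ms4a2 in 6, Cpa3 in 3, Mcpt8 in 2, Fcer1a in 1 and Il4 in 0.

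The ligand Cd200 had values of 0.15, -0.25, -0.10, 0.073, -0.10 and -0.11 after ozone and of 0.23, -0.057, 0.033, 0.10, -0.16 and -0.15 in filtered air. Its spread was the widest of the 7 genes in filtered air (SD 0.152, n = 6), and only ozone mouse 2 lay outside the filtered-air range. The difference was -0.056 (SE 0.0770).

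Sirpa was the least variable gene of the 7, with an SD of 0.0240 in the ozone mice and 0.0253 in the controls (n = 6 each). Ozone mice had values of 0.015, 0.019, -0.021, 0.040, 0.038 and 0.043, and filtered-air mice of 0.0017, 0.049, -0.023, -0.014, -0.0080 and -0.0049. Every ozone value lay inside the filtered-air range, and the difference was 0.022 (SE 0.0308).

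Cd47, the ligand of SIRP-alpha on the same and on other cells, had values of 0.072, -0.044, -0.065, -0.10, -0.14 and -0.25 in ozone mice 1 to 6. Filtered-air mice 1 to 6 had values of 0.077, 0.061, -0.015, 0.050, -0.041 and -0.13. Of the ozone mice, 5 lay below the filtered-air mean and 2, mice 5 and 6, lay below every filtered-air mouse. The difference was -0.089 (SE 0.0540), the lowest of the 7.

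In order of their differences the genes were Cd200r2 (0.47), Cd200r1 (0.15), Cd200r4 (0.076), Cd200r3 (0.026), Sirpa (0.022), Cd200 (-0.056) and Cd47 (-0.089). Neighbours in this order from Cd200r1 downward lay closer to each other than the sum of their SEs. The step from Cd200r1 to Cd200r2 was larger than the sum of theirs. Neither comparison is a test, since the genes were chosen with these differences known and were measured in the same mice.

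The ozone differences were then set side by side within each sort batch. The batch values are the parts of the difference that was known when the genes were chosen, so their agreement is a description. In Cd200r2 the difference was 0.46 in batch 1 and 0.48 in batch 2. Cd200r1 gave 0.20 and 0.10, Cd200r4 gave 0.094 and 0.058, and Cd47 gave -0.10 and -0.076. Cd200 was the member whose sign differed, with -0.13 in batch 1 and 0.014 in batch 2. In limma's interaction test 0 of the 7 genes had an adjusted p under 0.05, as did 0% of all genes, and 0 of the 7 had an unadjusted p under 0.05, against 2.60% of all genes. The estimated change of the Cd200r2 difference from batch 1 to batch 2 was 0.029 (SE 0.0932, limma adjusted p = 1.000).

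**Figure D2:**
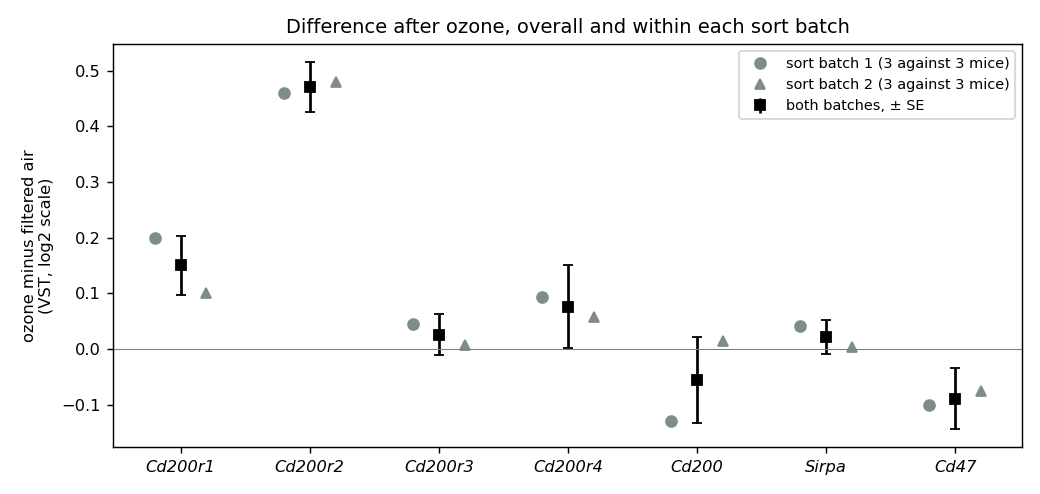
Ozone minus filtered air (y axis, VST on a log2 scale) for each gene, as the limma estimate ± SE over both batches (black squares) and as the difference of means in each sort batch (grey, 3 mice against 3). The Cd200r2 differences of 0.46 and 0.48 lie next to each other, and Cd200 is the gene with opposite signs.

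Next, the genes were compared mouse by mouse within the groups, as deviations from the group mean, to see which of them varied together apart from ozone. Of 21 pairs, Cd200r4 and Cd47 had the highest correlation over the 12 mice (Pearson r = 0.79, two-sided permutation p = 0.00191, adjusted over 21 pairs p = 0.0401; Spearman rho = 0.82, permutation p = 0.00188, adjusted p = 0.0395). Without the 2 mice farthest from the median of Cd200r4 the correlation was 0.76, and within the sort batches it was 0.79 and 0.93 (6 mice each). These p-values take the 12 mice as independent. In both genes, however, mice with the same replicate number deviated together, with a correlation between the groups of 0.881 in Cd200r4 and 0.885 in Cd47 over the 6 numbers. Between the means of same-numbered mice the 2 genes correlated at 0.84 (exact permutation p = 0.0208, adjusted p = 0.224), and between the differences within the numbers at 0.016 (exact permutation p = 0.981, adjusted p = 0.981). The pair did not pass with the replicate number taken into account.

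Cd200r1 and Cd200r4 followed with r = 0.77 (permutation p = 0.00528, adjusted p = 0.0554; rho = 0.71, permutation p = 0.0130, adjusted p = 0.136). In that pair the correlation was 0.58 without the 2 farthest mice, and 0.81 and 0.71 within the batches. Between the means of same-numbered mice it was 0.92 (exact permutation p = 0.0319, adjusted p = 0.224), and within the numbers 0.56 (exact permutation p = 0.243, adjusted p = 0.823).

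**Figure D3:**
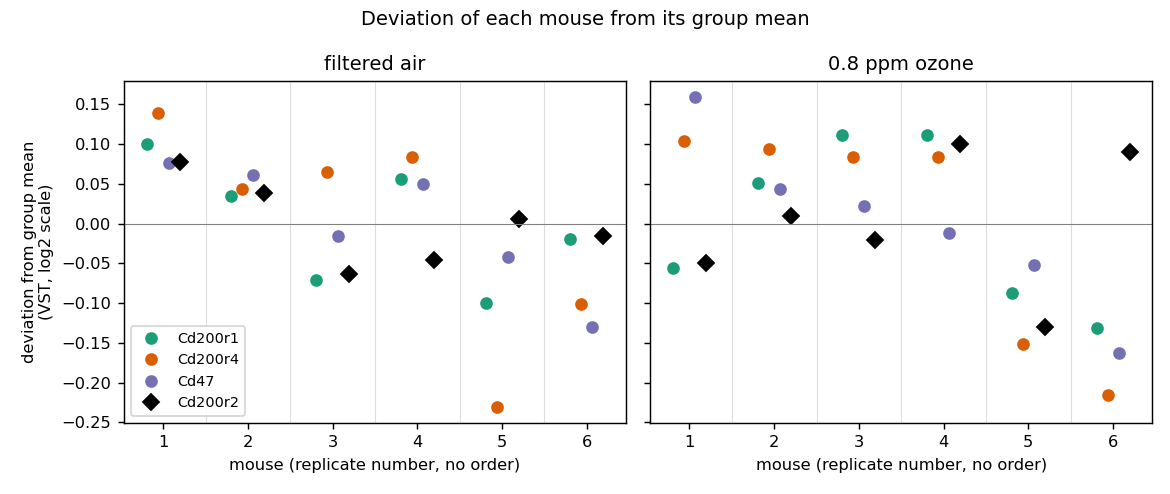
Deviation of each mouse from the mean of its group (y axis, VST on a log2 scale) for Cd200r1, Cd200r4, Cd47 and Cd200r2, by replicate number (x axis, which is a name and not an order). Mice 5 and 6 lie below 0 in Cd200r1, Cd200r4 and Cd47 in both groups, while ozone mouse 6 and filtered-air mouse 5 lie above 0 in Cd200r2.

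The 4 mice with the lowest Cd200r4 values, mice 5 and 6 of each group, were split evenly between the sort batches. Their RNA integrity numbers were 9.6 and 9.6 in filtered air and 9.7 and 9.5 after ozone, against 8.9 to 9.7 in the series. The summed level of 8 T and NK cell genes was 1.45 and 0.72 in filtered-air mice 5 and 6, and 1.26 and 0.65 in ozone mice 5 and 6. Filtered-air mouse 4 had the highest sum of the series, 2.12, with Cd200r4 at 0.085. The summed level of 5 B cell genes was -0.12 and -0.24 in filtered-air mice 5 and 6, and -1.47 and -0.72 in ozone mice 5 and 6. The summed level of 7 interstitial macrophage genes was 1.32 and 0.38 in filtered-air mice 5 and 6, and 2.26 and 0.83 in ozone mice 5 and 6, with 1.65 in filtered-air mouse 4 and 1.59 in ozone mouse 4. The sum for alveolar epithelium and the level of Il5ra, the 1 eosinophil marker kept, lay below 0 in these 4 mice. Both also lay below 0 in the other ozone mice and in filtered-air mice 1 and 2. Sums of the remaining lists were of either sign. As all sums are relative to the filtered-air mean, they hold the ozone difference of their list. Over all ozone mice the B cell sums ran from -1.49 to -0.63 and the interstitial macrophage sums from 0.16 to 2.26. The part of other cells in the pattern was not tested. Deviations of Cd200r2 had r = 0.047 against those of Cd200r4 (permutation p = 0.883, adjusted p = 0.928; rho = -0.063, permutation p = 0.852, adjusted p = 0.991). This correlation was 0.52 in batch 1 and -0.77 in batch 2, and -0.34 without the 2 mice farthest in Cd200r2.

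The genes beside the receptor cluster were examined for the same contrast. The 3 protein-coding neighbours before it were Boc, Nepro and Gtpbp8, with differences of -0.034, -0.068 and 0.020. Beyond it lay Ccdc80, Slc35a5 and Atg3, with differences of 0.21, 0.063 and 0.044, and the SEs of the 6 genes ran from 0.0386 to 0.0646. In limma 0 of these 6 passed, beside 4.25% of all genes. Of the 6, 1, Ccdc80, had an unadjusted p under 0.05, beside 16.7% of all genes. Adjusted p-values ran from 0.0927 for Ccdc80 to 0.898 for Gtpbp8.

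**Figure D4:**
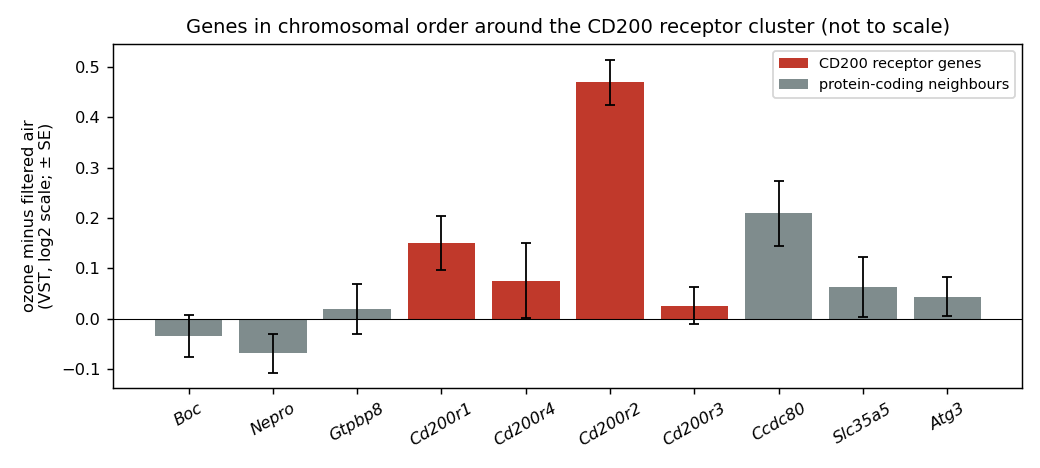
Ozone minus filtered air (bars, VST on a log2 scale, ± SE from limma) for the CD200 receptor genes and their 3 protein-coding neighbours on each side, in chromosomal order. The Cd200r2 bar, 0.47, stands beside Cd200r4 at 0.076 and Cd200r3 at 0.026.

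The genes whose values over the 12 mice were most like those of Cd200r2 were Pold3, which encodes a subunit of DNA polymerase delta (r = 0.951), C2cd2 (r = 0.950) and Snx9, which encodes a sorting nexin of endocytosis (r = 0.945). With group and batch means removed, their correlations with Cd200r2 were 0.68, 0.49 and 0.79. These 3 were the top of 19632 genes compared, of which 41 had an r of at least 0.9, so the values are given without a test. Over the same values, which hold the ozone difference, Cd200r1 had an r of 0.70 with Cd200r2. With group means removed the r of Cd200r1 was 0.32 (0.82 and -0.51 in the batches), and 0.78 without the 2 mice farthest in Cd200r1. That of Cd200r3 was 0.45 (0.36 and 0.77 in the batches) and that of Sirpa 0.40 (0.21 and 0.66), and without the 2 mice farthest in Cd200r2 they were 0.78 and 0.62. These correlations thus moved with the batch and with the 2 farthest mice. Their adjusted permutation p-values ran from 0.424 to 0.664 for Pearson and from 0.260 to 0.919 for Spearman correlations.

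The rest of the pathway was covered by 6 lists of 45 genes, of which 42 were kept. Of these, 2 rose, 0 fell and 40 did not pass, in limma with p-values adjusted over all genes. That is 4.76%, near the 4.25% of all genes. The median difference was -0.0021. Cd200l2 and Lilrb4b matched no row, and the CD200 homologue Cd200l1, listed as Gm609, was at the shared minimum in all 12 mice.

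Both genes that rose belong to the other ITIM-bearing inhibitory receptors of leukocytes, where 2 of 18 rose, beside 2.41% of all genes, 0 fell, beside 1.84%, and 16 did not pass (median -0.023). In limma 6 of the 18 had an unadjusted p under 0.05, beside 16.7% of all genes. By mean difference 9 of the 18 were higher and 9 lower after ozone. Ceacam1, a cell adhesion receptor, had a lowest, median and highest value of 0.26, 0.39 and 0.51 after ozone and of -0.20, -0.053 and 0.43 in filtered air. The groups overlapped, and 2 ozone mice lay above every filtered-air mouse. It rose by 0.38 (SE 0.0865, limma adjusted p = 0.0213), with differences of 0.51 in batch 1 and 0.26 in batch 2. It was no longer called after quantile normalization (adjusted p = 0.0884), in batch 2 alone (0.644), or when mouse 4 (0.0529) or mouse 5 (0.0509) of the ozone group or mouse 2 of the filtered-air group (0.0501) was left out. Siglece, a sialic acid receptor, ranged from 0.12 to 0.28 after ozone (median 0.16) and from -0.094 to 0.060 in filtered air (median 0.034), without overlap. It rose by 0.19 (SE 0.0436, limma adjusted p = 0.0241), with differences of 0.18 and 0.20 in the batches. Siglece lost its call after quantile normalization (adjusted p = 0.132), in batch 1 or batch 2 alone (0.317 and 0.381), and without filtered-air mouse 1 or 6 or ozone mouse 1 or 5 (0.0518 to 0.0636).

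Of the 11 adaptors and phosphatases that CD200R1 or SIRP-alpha recruit, 0 passed, beside 4.25% of all genes, and 0 had an unadjusted p under 0.05, beside 16.7%, with differences from -0.16 to 0.042 and a median of -0.030. Ptpn11, which encodes SHP-2, had the smallest p of them (-0.072, SE 0.0370, adjusted p = 0.354). The adaptors of the activating receptors with Syk and Plcg2, which act below them, gave 0 of 5 by either p, beside the same shares of all genes, with differences between -0.037 and 0.087. Fcer1g, the Fc receptor gamma chain, had the smallest p of them (0.087, SE 0.0507, adjusted p = 0.436), and its difference was 0.052 without filtered-air mouse 5. Among the 3 SIRP-beta genes 0 passed, beside 4.25% of all genes, and 1 had an unadjusted p under 0.05, beside 16.7%. This was Sirpb1c, at 0.21 (SE 0.0603, adjusted p = 0.0708). It passed with RNA integrity as a covariate (adjusted p = 0.0328), with the replicate number as a block (0.0180), and without filtered-air mouse 4 (0.0240) or ozone mouse 6 (0.0442). Of its 50-base words, 46.1% also occurred in other genes, mainly in Sirpb1b (42.3%), so its value is uncertain.

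Further ligands gave 0 of 3 with an adjusted p under 0.05, beside 4.25% of all genes. Of the 3, 1 had an unadjusted p under 0.05, the share over all genes being 16.7%. This was Thbs1, which encodes thrombospondin-1, a secreted ligand of CD47, at -0.59 (SE 0.205, adjusted p = 0.140), with 3 ozone mice below every filtered-air mouse and 1 value of 0.96 in filtered air. Without filtered-air mouse 4 the difference was -0.37, and without filtered-air mouse 2 it was -0.72. Myh9, the myosin heavy chain that works in the phagocytic cup, was at 0.12 (SE 0.0415, adjusted p = 0.134). Neither it nor Qpctl, the cyclase that modifies CD47, passed, beside 4.25% of all genes. Over all 42 genes, 9 had an unadjusted p under 0.05, beside 16.7% of all genes kept.

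**Figure D5:**
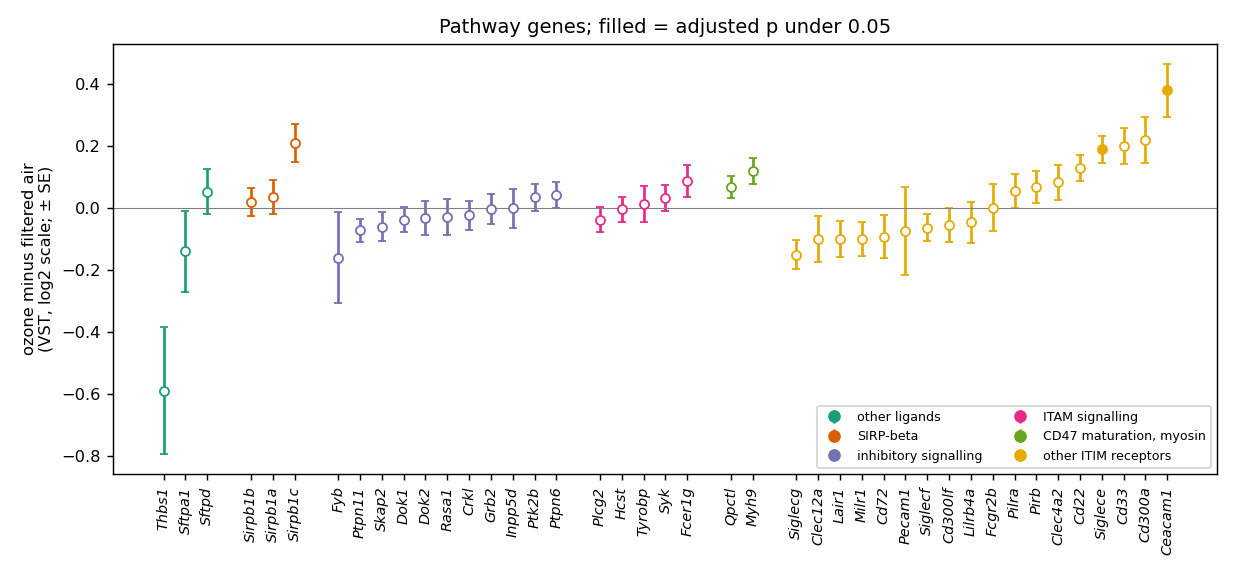
Ozone minus filtered air (y axis, VST on a log2 scale, ± SE from limma) for the 42 pathway genes kept, coloured by list; filled points have an adjusted p under 0.05. Ceacam1 at 0.38 and Siglece at 0.19 are the filled points, and Thbs1 at -0.59 is the lowest.

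Lists of cell type markers were read beside these values. All 10 alveolar macrophage markers were kept, with 2 called higher (Car4 and Chil3), beside 2.41% of all genes, 2 lower (Ear1 and Krt79), beside 1.84%, a median difference of -0.036, and sums from -0.53 to 1.65 after ozone and from -0.90 to 1.11 in filtered air. Of 61 markers kept from 11 lists for other cells, 0 were called higher and 1 was called lower, the epithelial marker Epcam, beside 2.41% and 1.84% of all genes. The sum over 7 interstitial macrophage markers ran from 0.16 to 2.26 after ozone and from -1.58 to 1.65 in filtered air, and the sum over 5 B cell markers from -1.49 to -0.63 and from -1.23 to 1.77. Of the 8 neutrophil markers, S100a8, S100a9, Retnlg, Csf3r and Mmp8 were above the shared minimum in all 12 mice, Ngp in 2, Ly6g in 1 and Camp in 0. Of the 4 eosinophil markers, Il5ra was above it in all 12, Prg2 in 5, Ccr3 in 2 and Epx in 0. The part of the other cells in the Cd200r2 difference was not tested. In sorted bulk RNA, fewer cells of a type and less RNA per cell cannot be told apart.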

How the data were processed

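Poly(A) RNA of flow-sorted alveolar macrophages from 12 mice was sequenced. The deposited values are log2-scale levels that the authors had variance-stabilized and batch-corrected, per the deposited file's name. Per the submitters' processing notes the tools included STAR 2.7.7a, Salmon 1.5.2, DESeq2 1.26.0 and limma 3.42.2, with build mm10; the annotation is not given in the sources used here. The filtered-air mean and the difference between batch means are 0 in every gene, and total reads are unknown, so precision rests on the number of mice.

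Genes were kept where at least 6 of 12 mice lay above the minimum shared within their sort batch (19633 of 25444 that were not constant). Ozone and filtered air were compared with limma 3.58.1 in R 4.3.3, with sort batch as covariate and no variance trend, two-sided, adjusted by Benjamini-Hochberg over all genes kept, threshold 0.05. The fit was tested on simulated data. Replicates are separate mice per the labels.

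The members and lists were chosen with earlier results of these data known. Named are the members, pathway genes with an adjusted p under 0.05 and the smallest p of each list, the 3 genes most like a member with separate groups, and 3 protein-coding neighbours on each side of the cluster. Deviations of members from group means were correlated over 12 mice with 100000 permutations and, added after the values were seen, over the 6 replicate numbers with exact permutations. Sequence identity used Biopython 1.88 global alignments.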

Additional observations from a re-analysis of the deposited data

Results flagged for a closer look

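Among the 14 combinations of gene and group, 1 held a mouse far from the others. In Sirpa, filtered-air mouse 2 lay at 0.049, above the other filtered-air mice (Dixon's ratio 0.651, above the critical value at the 95% level). Chance flags about 1 in 20 groups of this kind. Without this mouse the Sirpa difference was 0.033.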

How the results depend on the processing

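Quantile normalization brought the Cd200r2 difference to 0.38, a move of more than 1 SD between mice. The other members moved by less than 1 SD, which for small differences allowed large relative moves: Cd200 turned from -0.056 to 0.014 in batch 2 alone, Cd200r3 went to 0.0069 and Sirpa to 0.0027 there. Leaving out 1 mouse at a time gave 0.45 to 0.50 for Cd200r2, 0.12 to 0.18 for Cd200r1, 0.024 (without filtered-air mouse 5) to 0.12 for Cd200r4, 0.0012 (without filtered-air mouse 3) to 0.043 for Cd200r3, 0.017 to 0.033 for Sirpa, -0.10 to -0.0045 (without filtered-air mouse 1) for Cd200 and -0.13 to -0.053 for Cd47. The total of 834 called genes became 171 after quantile normalization, 90 in batch 1 alone and 0 in batch 2 alone, which use fewer mice, and 538 (without filtered-air mouse 1) to 751 without single mice. Of the pathway genes, 0 were called higher after quantile normalization, 1 in batch 1, 0 in batch 2 and 1 to 4 without single mice (4 without filtered-air mouse 4, and 1 without filtered-air mouse 1, 2 or 6 or ozone mouse 1, 4 or 5); 0 to 1 were called lower. Quantile normalization forced the same distribution on every mouse, in values already centred on the filtered-air mean of each gene. Its lower counts therefore do not tell which calls are wrong. The cause of the change under quantile normalization was not tested.

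Same-numbered mice are different animals, so mice were not treated as paired in the main fit. However, the deviations of 4 of 6 same-numbered pairs correlated above 0.1 (-0.00263 to 0.284), and the replicate number was also fitted as a block. The correlation between same-numbered mice was 0.881 in Cd200r4, 0.885 in Cd47 and 0.778 in Cd200, and from -0.407 to 0.156 in the other members. With the replicate block 853 of all genes were called, among them 4 pathway genes that were higher (Sirpb1c, Cd300a, Siglece and Ceacam1), and the members' differences were as without it. The block lowered the SE of Cd200r4 from 0.0749 to 0.0398, of Cd200 from 0.0770 to 0.0449 and of Cd47 from 0.0540 to 0.0353, while that of Cd200r2 was 0.0471. With the replicate block, chosen after seeing the data, the correlation of Cd200r4 and Cd47 went from 0.79 to 0.016. With RNA integrity as a covariate Sirpb1c was called besides Siglece and Ceacam1.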
